A study of Ovis aries with 15 samples.

Results

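The T cell receptor complex and its first signalling steps, 10 genes of the 24691 features in the deposited table, were followed through the ovine mammary gland, chosen by symbol: *CD3D*, *CD3E*, *CD3G*, *CD247*, *CD2*, *CD5*, *CD4*, *CD8A*, *LCK* and *ZAP70*. Each symbol matched 1 row. The 15 libraries were made from RNA pooled over several primiparous Romney ewes, 9 pools of biopsies from late pregnancy, at day 135 of gestation, and 6 pools from lactation, at day 15 post partum. The ewes were daughters of dams given 1 of 3 pasture allowances in early pregnancy and a maintenance allowance afterwards, labelled HM for ad libitum, MM for maintenance and LM for sub-maintenance, and the daughters themselves were managed alike on pasture. Each dam group contributed 3 late pregnancy pools and 2 lactation pools. The labels state that the same ewes were biopsied in both states, but do not say whether a pool number stands for the same ewes, and the sources differ on how many ewes entered a lactation pool.

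The T cell receptor binds peptide presented by other cells but cannot signal by itself. It depends on the CD3 chains, encoded by *CD3D*, *CD3E*, *CD3G* and *CD247*, whose cytoplasmic tails are phosphorylated by the kinase LCK and then dock the kinase ZAP70. CD4 and CD8 are co-receptors that bring LCK to the complex, CD2 is an adhesion receptor and CD5 a restraining receptor on the same cells. In the mammary gland T cells lie in the stroma and within the ductal and alveolar epithelium.

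Members of this group lie on 5 chromosomes in the coordinates of the table. *CD3E* (28500840 to 28511454), *CD3D* (28516003 to 28519888) and *CD3G* (28521791 to 28533618) are neighbours on chromosome 15. *CD2* is at 93287557 to 93301948 and *CD247* at 117694599 to 117779167 on chromosome 1, *LCK* at 234366922 to 234387568 on chromosome 2 and *CD5* at 36632525 to 36655077 on chromosome 21. Chromosome 3 holds *CD8A* (58476359 to 58486026), *ZAP70* (103318538 to 103345318) and *CD4* (207585764 to 207600726). The methods give the genome as version 3.2 and the labels as Oar_v3.1. All exon reads of the 10 genes were uniquely placed. The annotated exon length was a multiple of 3 in 6 of the 10 genes and in 48.4% of all features with a transcript. That does not show whether the models of these genes hold coding sequence only.

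Between 6471237 and 24001031 reads per library were counted. The 7 milk protein genes took 13.7% to 23.4% of them in late pregnancy and 71.3% to 75.8% in lactation, so levels are given as reads per kilobase of exon over the library size after trimmed mean of M-values (TMM) scaling, called scaled RPKM and set up like the deposited RPKM. The luminal markers *KRT19* and *ELF5*, from a list of 8, averaged 455.9 and 430.8 scaled RPKM in late pregnancy, and 694.1 and 753.3 in lactation. Of the 8, 4 were higher in lactation, 3 were not called and 1 was lower (edgeR adjusted p under 0.05). The lower 1, *CLDN4*, named after its values were seen, went from 29.4 to 21.4. The 10 genes together drew 573 to 2456 exon reads per late pregnancy library and 76 to 296 per lactation library.

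All 9 members that could be tested were lower in lactation than in late pregnancy, by 2.5-fold to 3.63-fold. The CD3 chains, the kinases and the adhesion receptors were all lower, with a median log2 change of −1.62 over the 9 genes and −0.03 over the 13345 genes tested. The tenth, *CD4*, had too few reads for the filter on low counts. That filter asks for enough reads in only as many libraries as lactation has, so late pregnancy alone can carry a gene through it. It did so for *CD5*, with 3 to 12 reads in a lactation library, and *CD8A*, with 0 to 4, among others. The count of 9 lower therefore depends in part on the filter. In the same comparison 68.4% of all genes tested were called, 35.2% lower and 33.1% higher (edgeR quasi-likelihood test, Benjamini-Hochberg adjusted p under 0.05). The calls over all genes, 4703 lower and 4419 higher, became 5990 and 3420 with upper quartile scaling, and 12705 and 352 with library size alone. Library size alone shifted the median of all genes to −1.94 and the members to between −3.77 and −3.16, which is −1.83 to −1.22 relative to that median. The biopsies are bulk tissue. Fewer T cells, less of these RNAs per T cell and more RNA from other cells therefore cannot be told apart.

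*CD3E*, the epsilon chain present in every CD3 complex, had the most reads. It stood at 10.7 scaled RPKM in the lowest, 12.9 in the median and 16.2 in the highest of the late pregnancy libraries, and at 3.46, 4.19 and 5.28 in lactation. Every lactation library lay below every late pregnancy library. The log2 change was −1.63 ± 0.112 (SE, adjusted p = 1e-10).

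The delta and gamma chains, which each pair with an epsilon chain, followed. *CD3G* ranged from 6.003 through a median of 8.21 to 11.6 in late pregnancy, and from 1.84 through 2.17 to 3.22 in lactation. Its log2 change was −1.83 ± 0.162 (adjusted p = 4.6e-09). *CD3D* ranged from 3.30 through 4.41 to 5.05, and from 1.03 through 1.43 to 1.76 in lactation, with a log2 change of −1.60 ± 0.161 (adjusted p = 3e-08). For neither gene did the states overlap.

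*CD247* encodes the zeta chain, whose long tail carries most of the phosphorylation sites that dock ZAP70. Its scaled RPKM was 3.45 to 5.72 in late pregnancy with a median of 4.41, and 0.754 to 2.05 in lactation with a median of 1.17. The states did not overlap, and the log2 change was −1.66 ± 0.196 (adjusted p = 2.9e-07). The 2 lactation pools of dam group MM were the highest of the 6, at 1.68 and 2.05.

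**Figure D1:**
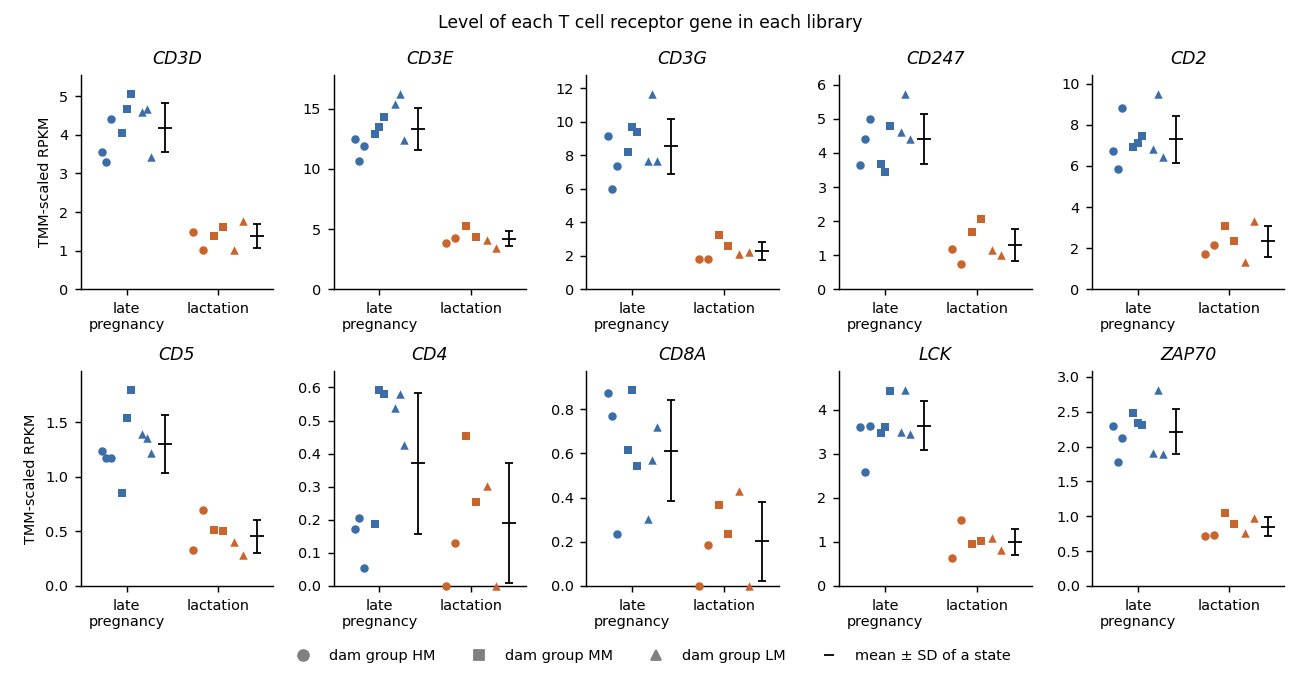
Scaled RPKM (vertical axis, linear from 0) of each of the 10 genes in 9 late pregnancy libraries (blue) and 6 lactation libraries (orange), with symbols for the dam groups and the mean ± SD of each state in black. The states are apart in 8 of the 10 genes and overlap in *CD4* and *CD8A*, both under 0.9 scaled RPKM in every library.

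Among the kinases, *LCK* fell by 1.86 on the log2 scale (SE 0.157, adjusted p = 2.4e-09), the largest point estimate among the members. Its late pregnancy values ran from 2.59 through 3.60 to 4.44 scaled RPKM and its lactation values from 0.623 through 0.979 to 1.49. The value of 1.49 belonged to lactation HM pool 2, and the other lactation pools were at 1.09 or below. *ZAP70* ran from 1.78 through 2.29 to 2.80 in late pregnancy and from 0.713 through 0.822 to 1.05 in lactation. Its log2 change was −1.35 ± 0.15 (adjusted p = 1.3e-07), again with no overlap between states.

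The adhesion receptor gene *CD2* changed by −1.62 ± 0.163 (adjusted p = 3.1e-08). Its level was 5.84 in the lowest, 6.92 in the median and 9.49 in the highest late pregnancy library, and 1.33, 2.27 and 3.35 in lactation. *CD5* was lower than *CD2* throughout, running from 0.848 through 1.23 to 1.79 in late pregnancy and from 0.282 through 0.452 to 0.696 in lactation. It changed by −1.47 ± 0.217 (adjusted p = 5.6e-06), and neither gene overlapped between states. Over all members, tested or not, 8 of 10 had every lactation library below every late pregnancy library, which was so of 20.0% of the genes tested.

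Both co-receptor genes were near the limit of detection. *CD8A* had 3 to 18 reads in a late pregnancy library and 0 to 4 in a lactation library, or 0.233 to 0.885 scaled RPKM (median 0.615) against 0 to 0.428 (median 0.211). The states overlapped, and the log2 change of −1.32 ± 0.465 had an adjusted p of 0.017. *CD4* had 1 to 23 reads against 0 to 7, or 0.0551 to 0.591 scaled RPKM (median 0.425) against 0 to 0.454 (median 0.192). Summed over libraries, *CD4* held 101 exon reads in late pregnancy and 14 in lactation, and *CD8A* 110 and 10. With every gene of at least 1 read tested, the log2 change of *CD4* was −0.76 (edgeR adjusted p = 0.26).

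The order of levels in late pregnancy was *CD3E* (13.3 ± 1.73 scaled RPKM, SD, n = 9), *CD3G* (8.52 ± 1.64), *CD2* (7.29 ± 1.16), *CD247* (4.41 ± 0.730), *CD3D* (4.19 ± 0.631), *LCK* (3.64 ± 0.553), *ZAP70* (2.21 ± 0.325), *CD5* (1.30 ± 0.265), *CD8A* (0.612 ± 0.230) and *CD4* (0.370 ± 0.214). In that order 3 pairs of neighbours did not differ beyond the SD of their log2 ratio within libraries, namely *CD3G* and *CD2*, *CD247* and *CD3D*, and *CD8A* and *CD4*. In lactation *CD3E* was again the highest, at 4.22 ± 0.612 (n = 6), and *CD8A* (0.203 ± 0.180) and *CD4* (0.190 ± 0.180) the lowest. There 5 pairs of neighbours did not differ beyond that SD: *CD2* and *CD3G*, *CD3D* and *CD247*, *CD247* and *LCK*, *LCK* and *ZAP70*, and *CD8A* and *CD4*. *CD3E* led its neighbour in every library of both states.

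Whether the members fell in proportion to each other was asked from ratios of 2 genes within a library, which do not depend on how libraries are scaled. Of 13 ratios 2 differed between states (exact two-sided permutation test between states, Benjamini-Hochberg adjusted over the 13). *ZAP70* over *CD3E* was −2.58 ± 0.185 on the log2 scale in late pregnancy (SD, n = 9) and −2.27 ± 0.242 in lactation (n = 6), a rise of 0.31 (SE 0.117, exact adjusted p = 0.018). Without lactation LM pool 2 that rise was 0.22 and its exact adjusted p 0.11. *CD3E* over *PTPRC*, the gene of the leukocyte surface phosphatase CD45, was 0.54 ± 0.135 in late pregnancy and 0.29 ± 0.101 in lactation, a fall of 0.25 (SE 0.061, exact adjusted p = 0.0052).

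For the other chains the ratio to *CD3E* moved less than the test could separate. *CD3D*, *CD247* and *CD2* over *CD3E* moved by 0.09 (SE 0.179), −0.08 (SE 0.187) and −0.03 (SE 0.217), with exact adjusted p of 0.76, 0.76 and 0.89. *CD3G* over *CD3E* moved by −0.22 (SE 0.11) and *LCK* over *CD3E* by −0.21 (SE 0.163), with exact adjusted p of 0.26 and 0.39. *CD5* over *CD3E* moved by 0.20 (SE 0.161, exact adjusted p = 0.4). These p-values do not show that the genes kept the same proportion.

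In late pregnancy *CD3E* exceeded *CD8A* by 22.2-fold and *CD4* by 40.7-fold per kilobase (means on the log2 scale). *CD8A* over *CD4* was 0.88 ± 1.03 on the log2 scale in late pregnancy, from −0.77 to 2.25, and 0.29 ± 0.325 in lactation (exact adjusted p = 0.4). In 4 of the 6 lactation libraries the ratio was 0.496, the value that equal counts give from the exon lengths alone, 2 of them with no read of either gene, so the lactation mean and SD say little. *CD4* over *CD3E* stood 0.92 higher in lactation (SE 0.501, exact adjusted p = 0.27) and *CD8A* over *CD3E* 0.33 higher (SE 0.407, exact adjusted p = 0.58). With 2 reads rather than 0.5 read added to each gene, 7 of the 13 ratios passed, among them all 4 of a co-receptor gene over *CD3E* or *PTPRC*. That addition is larger than the median *CD8A* count of a lactation library, 1.5 reads.

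**Figure D2:**
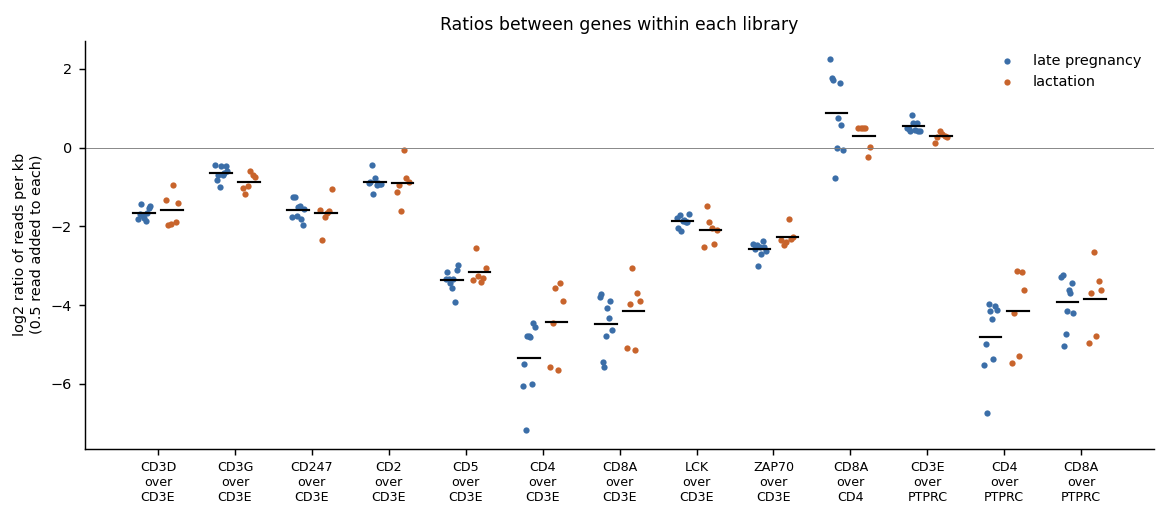
The log2 ratio of reads per kilobase of 2 genes in each library (vertical axis), for 9 late pregnancy (blue) and 6 lactation (orange) libraries, with the mean of each state as a bar. Ratios without *CD4* or *CD8A* span less than 2 log2 units over the 15 libraries, and each ratio with one of them spans more.

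Reads on a gene but outside its annotated exons, called intron reads here, gave a second count of the same genes. Whether they came from transcripts not yet spliced was not tested. Of the 10 genes 6 had enough intron reads to test, and all 6 were lower in lactation, where 29.0% of the 10344 genes tested on introns were called lower. The filter was the same, so late pregnancy alone could carry a gene in. *CD247*, for example, had 219 intron reads in late pregnancy and 25 in lactation. The log2 changes were −1.65 for *CD3E*, −1.74 for *CD3G*, −1.67 for *CD2*, −1.25 for *ZAP70*, −1.11 for *LCK* and −1.05 for *CD247*, with edgeR adjusted p of 8.6e-06, 3.3e-05, 7.6e-06, 0.0001, 0.00043 and 0.005. Introns held 12.4% to 17.6% of the reads on the 10 genes in late pregnancy libraries and 15.1% to 20.8% in lactation libraries. Over all annotated genes that share also counts the reads of the milk protein genes, whose part in it was not tested. It was 14.4% to 16.1% in late pregnancy and 5.85% to 13.2% in lactation, where HM pool 1 had 13.2% and the other 5 libraries 5.85% to 6.68%. That pool also had the lowest milk protein share of the lactation libraries, and without it 9 members were called lower, with *CD4* then tested and not called (edgeR adjusted p = 0.4).

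Within a state, pools differed in how much of the whole group they carried. Late pregnancy LM pool 2 was the highest of its state in 6 of the 9 tested genes and late pregnancy HM pool 2 the lowest in 6 of the 9. HM pool 2 also had the fewest reads of all libraries. *PTPRC* lay 0.20 above its state mean on the log2 scale in the first pool and 0.25 below it in the second. In lactation both MM pools were high, with 8 and 9 of the 9 genes above the state mean, while HM pool 1 had 1 of 9 above it.

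**Figure D3:**
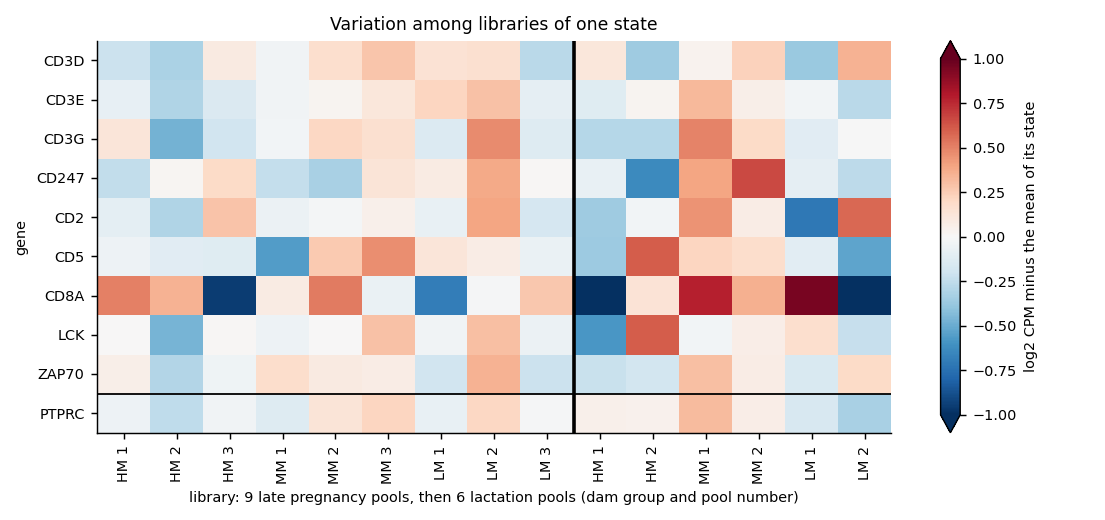
Deviation of log2 CPM from the mean of the state (colour, scale cut at −1 and 1) for the 9 tested genes and *PTPRC* in rows and the 15 libraries in columns. Late pregnancy LM 2 and lactation MM 1 are mostly red, late pregnancy HM 2 and lactation HM 1 mostly blue, and *CD8A* scatters most.

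The 10 genes outside the group whose pattern was most like the mean of the 9 tested members were ranked by Pearson correlation of state-centred log2 CPM (TMM-scaled counts, minus the mean of the state) over 15 libraries, among 13336 genes. They were *WAS* (r = 0.84, Spearman rho 0.74), *IL2RB* (0.84, rho 0.76), *RAC2* (0.84, rho 0.85), *CD27* (0.83, rho 0.82), *CKS2* (0.83, rho 0.81), *FNBP1* (0.83, rho 0.65), *P2RY13* (0.82, rho 0.74), *GINS4* (0.82, rho 0.67) and the unnamed loci LOC101122494 (0.83, rho 0.71) and LOC101119381 (0.82, rho 0.74). No p is given, since they were picked as the highest. Without the 2 libraries farthest from the median, lactation MM pool 1 and late pregnancy LM pool 2, r lay between 0.70 and 0.86. With library size alone 5 of the 10 stayed among the 10 most alike. Among the members themselves, *CD3G* (r = 0.84, rho 0.76) and *CD3E* (0.75, rho 0.78) followed the mean of the other members most closely, and *CD3D* (0.14, rho 0.13) and *CD8A* (0.13, rho 0.01) the least, over the same 15 libraries.

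The dam's nutrition gave no call among the members. In late pregnancy 0 of the 10 genes, and 0.0% of the 13747 genes tested, passed (edgeR quasi-likelihood test over 3 groups). At an unadjusted p under 0.05 stood 2 of the 10 members and 4.15% of all genes, and DESeq2 called 20 genes, none of them a member. *CD4* was 0.172, 0.204 and 0.0551 scaled RPKM in the HM pools, 0.187, 0.591 and 0.579 in the MM pools, and 0.539, 0.579 and 0.425 in the LM pools (edgeR unadjusted p = 0.0174, adjusted p = 1.0). Those values rest on 1 to 23 reads. *CD3E* was 12.5, 10.7 and 11.9 in HM, 12.9, 13.4 and 14.3 in MM, and 15.4, 16.2 and 12.4 in LM (edgeR unadjusted p = 0.047, adjusted p = 1.0).

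A test of whether the difference between states differed among dam groups called 0 of the 10 members and 0.0% of the 14073 genes tested (edgeR quasi-likelihood test of the interaction). At an unadjusted p under 0.05 were 1 member and 6.49% of all genes, and DESeq2 called 21 genes, none of them a member. The member was *CD247* (edgeR unadjusted p = 0.0383, adjusted p = 0.753).

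Genes that work beside the members were read from fixed lists. The same filter on low counts applied to them, so late pregnancy alone could carry a gene in. Over all genes tested 35.2% were called lower and 33.1% higher. Co-receptors and partners gave 12 measured genes, of which 7 were tested, and 5 were lower and 0 higher. *CD96*, a receptor of T and natural killer cells, fell by 2.09 on the log2 scale (SE 0.161), *CD6*, an adhesion receptor related to CD5, by 1.70 (SE 0.249) and *CD7* by 1.53 (SE 0.199). *CD58*, the ligand of CD2 on other cells, changed by −0.06 (SE 0.11, edgeR adjusted p = 0.66). *CD8B*, the partner chain of CD8A and named after its values were seen, fell by 1.35 (SE 0.271, edgeR adjusted p = 0.00019) from 1.54 to 0.595 scaled RPKM, above *CD8A* in both states.

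Proximal signalling genes split. Of 23 tested, 16 were lower, 5 higher and 2 not called (21 lower and 1 higher with library size alone), and the median log2 change was −0.66. Among its 4 most abundant genes *LCP2*, the adaptor SLP-76 that ZAP70 phosphorylates, rose by 2.17 (SE 0.0753, edgeR adjusted p = 3.6e-15) from 5.98 to 26.9 scaled RPKM. In lactation *CD3E* averaged 4.22 and *PTPRC* 3.495 scaled RPKM. Which cells of the biopsy gave the reads of *LCP2* and the other abundant genes was not tested. *ORAI1*, the pore of the store-operated calcium channel, rose by 1.27 (SE 0.092), though with library size alone it fell by 0.63. *STIM1*, the calcium sensor that opens that channel, changed by −0.22 (SE 0.0575, edgeR adjusted p = 0.002), and *BCL10*, an adaptor towards NF-kB, by 0.02 (SE 0.0793, edgeR adjusted p = 0.83). Another 3 genes, named after their values were seen, had log2 changes nearer to those of the members: *SKAP1* −1.88, *LAT* −1.34 and *FYN* −1.14.

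Genes that restrain this signalling were also mixed, with 9 lower, 3 higher and 3 not called of 15 tested (15 lower with library size alone). The median log2 change was −1.195. The diacylglycerol kinases *DGKA* and *DGKZ* rose by 0.63 (SE 0.0828) and 0.34 (SE 0.0746), both lower with library size alone. *CSK*, the kinase that switches LCK off, changed by −0.16 (SE 0.0663, edgeR adjusted p = 0.039), and the phosphatase gene *PTPN6* by 0.19 (SE 0.081, edgeR adjusted p = 0.048), calls that several alternatives lost. These 4 were the most abundant of the list, and which cells their reads came from was not tested. Another 3, less abundant and named after their values were seen, had log2 changes nearer to those of the members: *PTPN22* −1.66, *PTPN7* −1.83 and *SIT1* −1.65.

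Cytotoxic and natural killer genes were lower in lactation in all 8 tested of 11 measured, where 35.2% of all genes tested were lower. Their median log2 change was −2.16 beside −1.62 for the members. *CTSW* went from 39.4 to 7.96 scaled RPKM (log2 change −2.29 ± 0.11), *CCL5* from 24.2 to 5.17 (−2.12 ± 0.166), *GNLY* from 10.2 to 2.32 (−2.10 ± 0.319) and *NKG7* from 7.63 to 1.54 (−2.20 ± 0.167). *GZMM* and *FASLG*, named after their values were seen, had log2 changes of −2.70 and −3.04. Their lactation levels reached the floor, at 0 to 0.728 and 0 to 0.093 scaled RPKM, so the size of these changes is uncertain. Whether this list fell more than the members was not tested.

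Receptors for cytokines and homing were lower in 12 of 14 tested and higher in 0, with *ITGB7* at −1.84 ± 0.137, *IL2RB* at −1.81 ± 0.139, *IL2RG* at −1.36 ± 0.121 and *S1PR1* at −0.62 ± 0.121. Of the T cell transcription factor list 10 of 11 tested were lower. Its most abundant gene, *GATA3*, is also a factor of the luminal epithelium and stood at −0.59 ± 0.146, with *ETS1* at −0.76 ± 0.097 and *ZBTB7B* at 0.20 ± 0.0635. *TCF7* and *TBX21*, named after their values were seen, had log2 changes of −1.84 and −1.89.

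**Figure D4:**
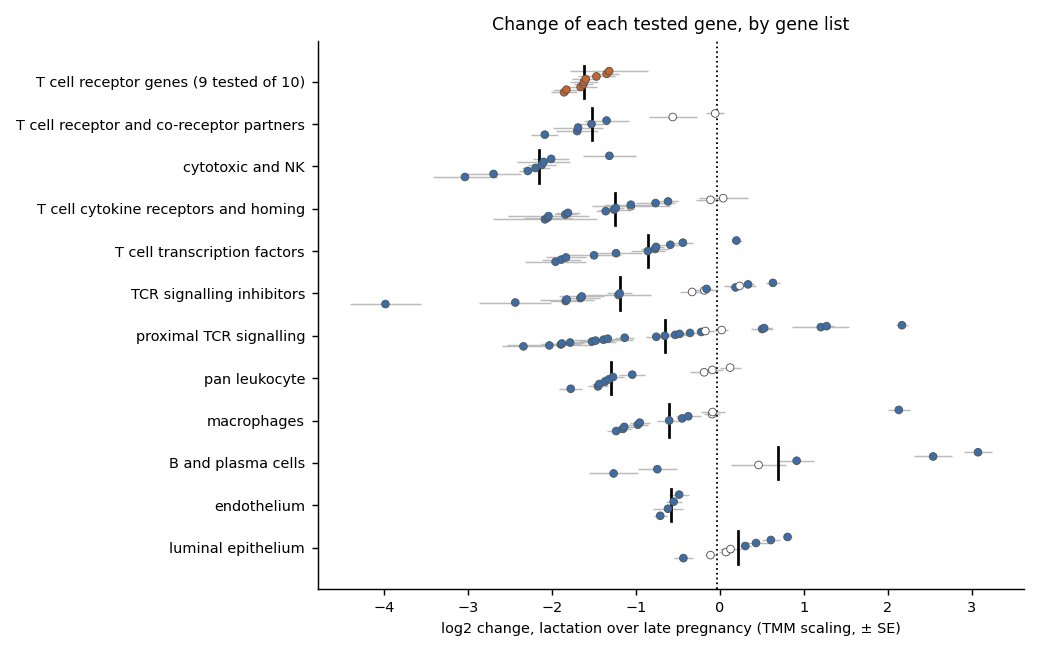
The log2 change of lactation over late pregnancy (horizontal axis, ± SE) for every tested gene of 12 lists, filled where the edgeR adjusted p was under 0.05, with the median of each list as a bar and that of all genes as the dotted line. The T cell receptor genes lie between −1.86 and −1.32, the cytotoxic list between −3.04 and −1.32 and the luminal epithelial list around its median of 0.21.

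Markers of other cells moved too. The summed scaled RPKM of the members was 36.7 to 57.5 in late pregnancy and 11.7 to 17.96 in lactation. That of 10 pan-leukocyte genes was 122.0 to 154.2 against 61.3 to 93.0, with 7 of 10 lower, among them *PTPRC* (−1.37 ± 0.0943), *CORO1A* (−1.44 ± 0.0864) and *LAPTM5* (−1.33 ± 0.0866). The abundant pan-leukocyte genes *ARHGDIB* (−0.19 ± 0.17, edgeR adjusted p = 0.33) and *LCP1* (0.12 ± 0.124, edgeR adjusted p = 0.4; −1.80 with library size alone) were not called. The 11 macrophage genes summed to 163.1 to 213.6 against 93.5 to 120.2 (8 lower, 1 higher), the 4 endothelial genes to 33.8 to 44.9 against 20.2 to 27.9 (4 lower), and the 6 fibroblast genes to 151.0 to 245.2 against 111.7 to 174.5 (5 of 6 lower).

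In the remaining lists TMM scaling gave rises as well as falls. The 11 B and plasma cell genes summed to 21.4 to 52.9 in late pregnancy and 45.6 to 107.8 in lactation (2 lower and 3 higher of 6 tested), with *CD79A* at −1.27 ± 0.289, *MZB1* at 2.54 ± 0.223 and *IGJ*, the joining chain of secreted antibody, at 0.91 ± 0.207, lower with library size alone. *PAX5* had no read in any library. The 8 luminal genes summed to 1047 to 1289 against 1697 to 1847 (1 lower, 4 higher), the 6 myoepithelial genes to 257.1 to 286.3 against 219.7 to 327.0 (2 lower, 2 higher of 6), the 7 adipocyte genes to 537.4 to 1069 against 1457 to 1813 (0 lower, 1 higher of 5 tested) and the 6 neutrophil genes to 0.746 to 2.22 against 5.47 to 8.71 (0 lower, 1 higher of 2 tested). The rise of each of the last 2 sums came mostly from 1 gene, *LPL* and *MPO*. Most of the B and plasma cell sum was *IGJ*, at 31.9 scaled RPKM in late pregnancy and 59.8 in lactation. The adipocyte genes *ADIPOQ* (−0.35 ± 0.324) and *CIDEC* (−0.61 ± 0.443) were not called. *LPL* went from 7.83 to 805.2 scaled RPKM, while *FABP4* averaged 805.8 and 833.9 (log2 change 0.05 ± 0.118, edgeR adjusted p = 0.73; −1.85 with library size alone). *MPO* went from 0.0166 to 5.64, while *CSF3R* changed by −0.46 ± 0.37 (edgeR adjusted p = 0.28). All 7 milk protein genes were higher (6 higher and 1 lower with library size alone). With library size alone the counts were 4 lower and 2 higher for the B and plasma cell genes, 8 and 0 for the luminal, 6 and 0 for the myoepithelial, 4 and 1 for the adipocyte and 1 and 1 for the neutrophil genes. The part of these shifts in the members' fall was not tested.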

How the data were processed

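The authors mapped paired reads to the sheep genome and counted them in CLC Genomics Workbench, and deposited 1 table with counts of total and unique exon reads, gene reads and exon-exon reads per library, with RPKM and quantile-normalized expression values derived from them. The deposited RPKM equal exon counts over length and depth (largest relative difference 3.48e-07), and the deposited normalized expression values are a score with one quantile distribution in every library. Columns of the authors' own comparisons (fold changes, p-values) were not used.

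Exon counts, or gene counts for the 5583 features without a transcript, were fitted over the whole table with edgeR 4.0.16 (R 4.3.3, quasi-likelihood F-test, TMM scaling, filterByExpr by state) on 15 libraries of 6471237 to 24001031 counted reads. p-values were Benjamini-Hochberg adjusted over all genes and called under 0.05. limma 3.58.1 and DESeq2 1.42.0 were alternatives. The script was tested on simulated data. Ratios took 0.5 read on each gene (numpy 2.4.6, Python 3.11.15), and log2 CPM a prior count of 2. The smallest p that this test allows is 0.0002. Pools are the replicates. The fits treat the states as independent, although ewes were biopsied in both.

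The 10 genes and the lists were chosen with earlier results of these data known. Of each list up to 4 genes with the highest mean RPKM were named, plus *PTPRC* and the 10 most alike genes, and a gene that this rule would name is not reported here. Listed symbols that matched no feature were not analysed here, among them the receptor constant chains. No pair of libraries was identical (0 of 105).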

Additional observations from a re-analysis of the deposited data

How the results depend on the processing

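The count of 9 members lower and 0 higher stayed within 1.5 times in every alternative but 1: a filter of at least 10 reads in every library left 3 members to test, all 3 lower. Introns gave 6 of 6 lower and 5997 calls over all genes against 9122. Leaving out each library in turn kept 9 members lower, with 8891 to 9049 genes called, and with the library column names split by lane, 9 members were lower in lane 7 and 8 in lane 8, where *CD8A* changed by −0.98 (edgeR adjusted p = 0.24), a check added after the data were seen. The descriptions state that each library ran on 2 lanes, so this lane may not separate the reads. Without the milk protein genes *CD8A* failed the filter.

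Of 13 ratios, 2 differed. With 2 reads added 7 did, without single libraries 1 to 3 did (1 without lactation LM pool 2), and with the replicate block 0 did. That block flips signs within 6 pairs sharing dam group and pool number, whose smallest exact p is 0.031 before adjustment, too large to pass. The pool numbers pair nothing visible (correlations of deviations −0.04 to 0.057). The block in the edgeR fit kept 9 members lower and changed the number of genes called to 8464. Nutrition and its interaction gave 0 members in every alternative, including single libraries left out (0 to 0).

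With library size alone *ORAI1* (−0.63), *BCL10* (−1.89), *DGKA* (−1.26), *DGKZ* (−1.57), *PTPN6* (−1.72), *ZBTB7B* (−1.71), *LCP1* (−1.80), *FABP4* (−1.85) and *IGJ* (−1.01) changed sign. The shift was one of all genes. Of these *BCL10*, *LCP1* and *FABP4* had not been called with TMM scaling. On introns the estimates of *BCL10* (−0.40) and *PTPN6* (−0.32) changed sign, and the cause was not tested. The few reads of *CD4* and *CD8A* limit what can be said of these 2 genes.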

Other observations

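Over all 10 genes and their sum, none of 22 sets of libraries of one state held a library set apart from the rest by Dixon's gap test (0 found, about 1 in 20 by chance).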
